A study of Mus musculus with 5 samples.

Results

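Tnf, Il6, Il10 and Il12b encode 4 secreted products by which macrophages start, sustain or restrain inflammation, and their transcripts were followed here through poly IC, a synthetic double-stranded RNA, with and without ethanol. Every probe set whose platform annotation names one of these genes was taken, together with a mouse IL-10 control probe set as a second reading of Il10. This gave 5 of the 12488 probe sets on the Affymetrix MG-U74Av2 array, which carries short probes for mouse transcripts. The RNA came from peritoneal macrophages on 5 arrays. The 2 arrays of the poly IC plus ethanol group and the 2 of the poly IC group each held RNA pooled from female C57Bl/6 x C3H F1 mice aged 12 weeks. Poly IC was given at 0.1 mg per mouse in every treated pool whose label states a dose, which leaves out poly IC replicate 1. Ethanol was given by mouth at 6 g per kg. The reference was 1 array from untreated (naive) animals, for which no strain, sex, age or pooling is stated. With no group on ethanol by itself, an effect of ethanol and an altered response to poly IC cannot be told apart. Nor can treatment and any difference in strain, sex, age or pooling from the naive animals. The labels state neither when cells were taken nor how poly IC was given nor how many mice made a pool.

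TNF is made as a membrane trimer that the protease ADAM17 releases, and it acts through the receptors TNFR1 and TNFR2 on NF-kB and cell death pathways. IL-6 binds its receptor chain together with gp130, and IL-10 binds a receptor of an alpha and a beta chain. Both drive the transcription factor STAT3, IL-6 towards the acute-phase response and IL-10 towards the shut-down of macrophage cytokine production. Il12b encodes the chain shared by IL-12 and IL-23, which steer T cells and natural killer cells. Double-stranded RNA is sensed by Toll-like receptor 3 in endosomes and by helicases in the cytosol, and both routes lead to NF-kB and to interferon regulatory factors, which bind the promoters of such genes.

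The sequences just upstream of the start sites are shown as background on the genes, and no result about the signals is drawn from them. The RefSeq promoter windows used here, of build GRCm38.p6, covered Tnf, Il6 and Il12b, 3 of the 4 genes. The 250 bases before each start lie at chr17:35202008-35202257 on the minus strand for Tnf, chr5:30012864-30013113 on the plus strand for Il6 and chr11:44399813-44400062 on the plus strand for Il12b. They are written 5′ to 3′ along the gene. Capitals mark every match, on either strand, to the motifs listed after them except the looser kappaB pattern.
Tnf: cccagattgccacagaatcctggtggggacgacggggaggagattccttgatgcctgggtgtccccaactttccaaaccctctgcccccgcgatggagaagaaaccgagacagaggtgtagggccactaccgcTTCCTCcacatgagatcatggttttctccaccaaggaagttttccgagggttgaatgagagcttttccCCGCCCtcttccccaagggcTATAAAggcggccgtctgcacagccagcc
Il6: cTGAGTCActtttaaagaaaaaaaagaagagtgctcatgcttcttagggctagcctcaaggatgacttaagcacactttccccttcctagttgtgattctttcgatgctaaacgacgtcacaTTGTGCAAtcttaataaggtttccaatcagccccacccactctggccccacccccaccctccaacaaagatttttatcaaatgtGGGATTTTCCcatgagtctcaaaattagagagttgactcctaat
Il12b: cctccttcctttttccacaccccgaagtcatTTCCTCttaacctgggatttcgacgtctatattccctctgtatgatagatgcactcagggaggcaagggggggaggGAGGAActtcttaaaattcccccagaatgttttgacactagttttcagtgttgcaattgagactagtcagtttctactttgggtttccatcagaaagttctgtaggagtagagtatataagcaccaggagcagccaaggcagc

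The motifs searched on both strands were a strict kappaB pattern (GGGA, any base, TTTCC), a loose kappaB pattern (GGG, 5 of any base, CC), the TATA box (TATAAA), AP-1 (TGANTCA), CRE (TGACGTCA), C/EBP (TTGCNNAA), the STAT element GAS (TTCNNNGAA), ISRE (GAAA, 2 of any base, GAAA), PU.1 (GAGGAA) and Sp1 (GGGCGG). Il6 held the strict kappaB pattern as GGGATTTTCC from -44 to -35, counted from the RefSeq start site. That pattern was found in 0.3% of 27025 windows of the same length, 1 window per gene. Il6 also held an AP-1 match from -249 to -243 (6.9% of windows) and a C/EBP match from -128 to -121 (9.6%). Tnf held a TATA box from -29 to -24 (13%), an Sp1 match from -49 to -44 (32.9%) and a PU.1 match from -117 to -112 (23.1%). Il12b held 2 PU.1 matches, from -219 to -214 and from -143 to -138. The loose kappaB pattern, present in 45.4% of windows, matched Tnf from -194 to -185 on both strands. In Il6 it matched from -85 to -76 and, overlapping the strict pattern, from -44 to -35 and from -43 to -34, and Il12b had no match to it. No CRE, GAS or ISRE match fell in these windows, where 1.6%, 7.2% and 3.0% of all windows had one. A match is a run of letters and was not measured as a binding site.

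**Figure D1:**
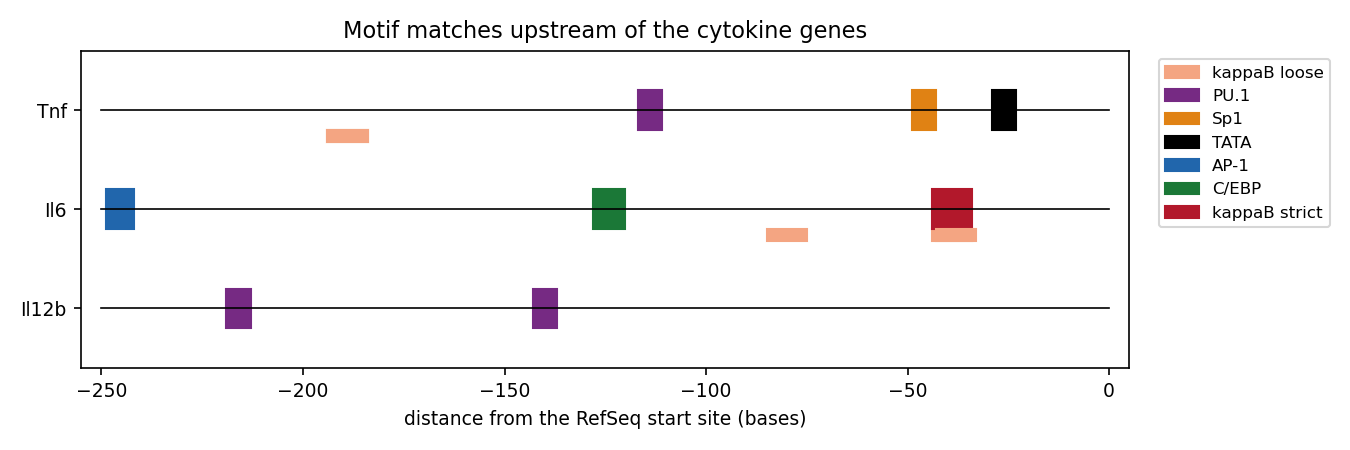
Motif matches in the 250 bases upstream of Tnf, Il6 and Il12b. The x axis is the distance from the RefSeq start site in bases, boxes are matches on either strand, and the lower thin boxes are the loose kappaB pattern. Il6 is the gene with the strict kappaB match, at -44 to -35.

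Signals are linear intensities that the submitters scaled to a common target on each array. A signal was set against the brightest of 19 control probe sets for bacterial and yeast sequences on the same array, which lay between 299.6 and 443.8. All 5 probe sets passed the filter on dim probe sets, a mean over the arrays of at least 513. On the naive array each of them lay below 513, so each passed through the treated arrays and had to be higher there. A count of rises against naive over these genes is therefore no support for anything, and the values are given as measured. Differences are given as log2(signal + 250) of the first group minus that of the second, a scale that understates the change of dim genes. They were tested with limma across 5581 genes, with p-values adjusted by Benjamini-Hochberg over all of them and a threshold of 0.05. The pools, not the animals, were the replicates, and the naive group had none, so a difference from naive assumes that it varies like the treated groups. Poly IC replicate 2 stood apart in its 18S ribosomal RNA control signal, 66548 against 5113 to 19415 on the other 4 arrays. Calls on the 4 cytokines and on named genes of the lists around them that changed without it are given both ways. Calls on cell type markers were not refitted without it.

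Tnf was high on all 4 treated arrays. Its signals were 5720 and 7256 with poly IC plus ethanol, 6489 and 6261 with poly IC, and 467 on the naive array. The 2 poly IC values lay between the 2 ethanol values, so the treated groups overlapped, and the naive signal lay just above the brightest control. The means were 6488 ± 1086 with ethanol and 6375 ± 161 without (SD, n = 2 each). Between them Tnf differed by 0.02 log2 units (SE 0.17, 95% interval -0.37 to 0.40, adjusted p = 0.972). That interval spans 0.772-fold to 1.32-fold, and 10.6% of all genes passed the test in this comparison. Poly IC against naive gave 3.21 (SE 0.21, adjusted p = 3.16e-06), a ratio of mean signals of 13.7. Poly IC plus ethanol against naive gave 3.22 (SE 0.21, adjusted p = 4.18e-06). These comparisons with naive share its single array, and of all genes 31.8% passed with poly IC (11.7% higher, 20.1% lower) and 16.6% with poly IC plus ethanol (8.39% higher, 8.26% lower).

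Il6 was the member with the widest range. It gave 24745 and 25951 with poly IC plus ethanol, 18292 and 15169 with poly IC, and 255 on the naive array. Both ethanol pools were above both poly IC pools, and the naive signal lay below the brightest control. Il6 averaged 25348 ± 853 with ethanol and 16731 ± 2208 without (SD, n = 2 each), a ratio of 1.51. The log2 difference was 0.60 (SE 0.15, 95% interval 0.27 to 0.93, adjusted p = 0.0311), so Il6 rose where ethanol was added. Genes called higher made up 5.77% of those tested and genes called lower 4.8%, and Il6 ranked 562 from the top of 5581. The call rested on both poly IC pools. Without poly IC replicate 2 the difference was 0.46 (adjusted p = 0.305) and without poly IC replicate 1 it was 0.73 (adjusted p = 0.0884). It was also lost when each array was centred on its median (0.51, adjusted p = 0.0688). Against naive the mean was at least 84.0-fold higher with poly IC plus ethanol (log2 difference 5.66, SE 0.18, adjusted p = 2.08e-08) and at least 55.4-fold higher with poly IC (5.06, SE 0.18, adjusted p = 2.98e-08). Both bounds are against the brightest control on the naive array. The log2 differences take a naive signal below that control at its value and move with the offset, between 4.39 and 6.31 with poly IC plus ethanol and between 3.81 and 5.71 with poly IC.

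Il10 was read by its own probe set and by the IL-10 control probe set. The first gave 1948 and 1550 with poly IC plus ethanol, 1984 and 2096 with poly IC, and 33 on the naive array. The second gave 1531 and 1951 with ethanol, 1575 and 1839 without, and 63 on the naive array. Both were below the brightest control on the naive array and above it on all treated arrays. The treated groups overlapped in the second reading, while in the first both ethanol values were below both poly IC values, with 1948 as the higher ethanol value and 1984 as the lower poly IC value. The pool with the higher signal among the ethanol pair also changed, replicate 1 in the first reading and replicate 2 in the second. The log2 difference between ethanol and poly IC was -0.20 (SE 0.23, 95% interval -0.72 to 0.31, adjusted p = 0.640) by the first. By the second it was 0.02 (SE 0.26, interval -0.61 to 0.65, adjusted p = 0.988), in a limma fit over all 12488 probe sets. The readings differed in sign, and neither passed. Against naive, poly IC plus ethanol was at least 5.79-fold higher by the first reading and at least 5.77-fold by the second, and poly IC at least 6.76-fold and 5.65-fold. The first reading rose by 2.81 (SE 0.28, adjusted p = 8.80e-05) with poly IC plus ethanol and by 3.02 (SE 0.28, adjusted p = 3.50e-05) with poly IC. With other offsets these ranged from 1.41 to 4.22 and from 1.56 to 4.44, with a naive signal of 33 units.

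Il12b was read by 1 probe set and was modest on all 4 treated arrays, at 3.3 to 5.2 times the brightest control. It gave 1260 and 1468 with poly IC plus ethanol, 1392 and 1789 with poly IC, and 281 on the naive array. The treated groups overlapped. The naive signal lay just below the brightest control of that array, 301.9. Means were 1364 ± 147 with ethanol and 1590 ± 281 without (SD, n = 2 each). The log2 difference was -0.18 (SE 0.24, 95% interval -0.72 to 0.36, adjusted p = 0.695), an interval from 0.606-fold to 1.28-fold. Against naive Il12b was at least 4.52-fold higher with poly IC plus ethanol (1.60, SE 0.29, adjusted p = 0.00485) and at least 5.27-fold with poly IC (1.78, SE 0.29, adjusted p = 0.00142). With other offsets these ranged from 0.88 to 2.04 and from 1.01 to 2.25.

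**Figure D2:**
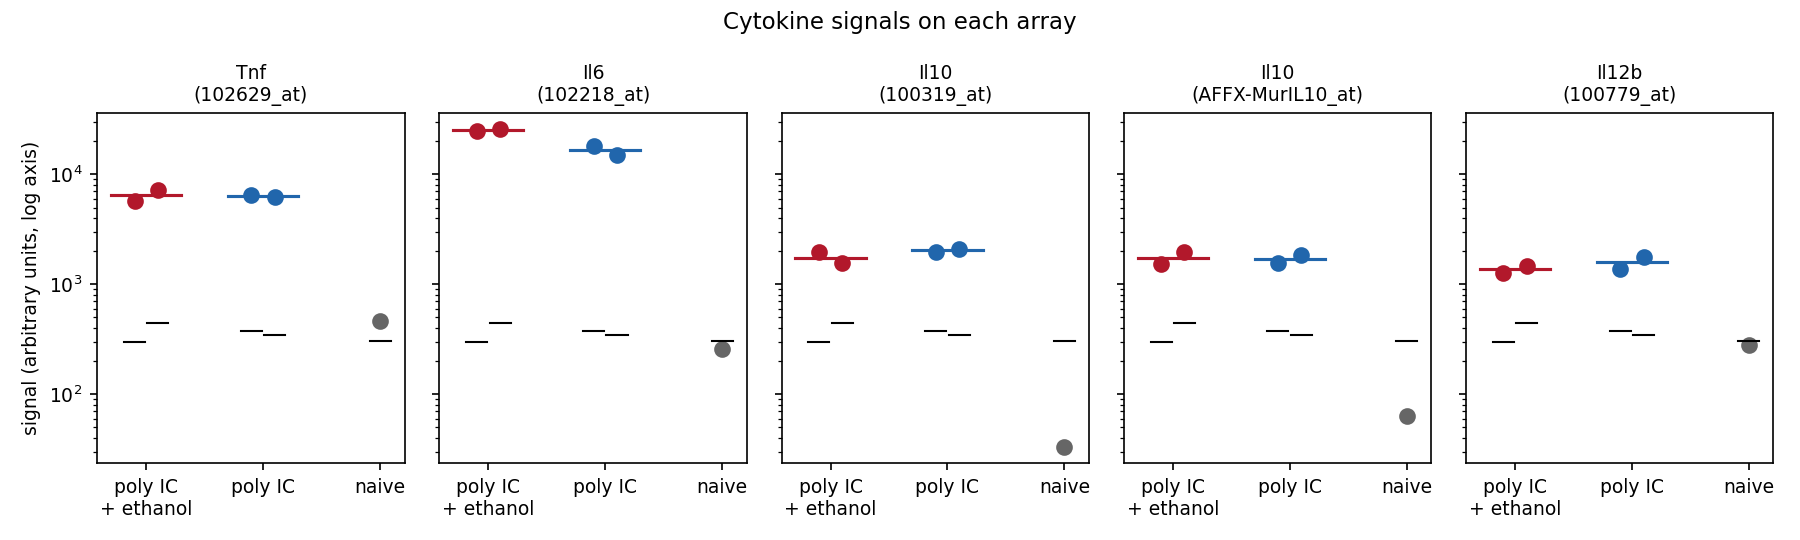
Signal of each cytokine probe set on each array, on a log axis in arbitrary units, by group. Points are arrays, coloured bars are means of 2, and short black lines are the brightest of 19 unspiked controls on that array. The ethanol and poly IC points separate for Il6 (24745 and 25951 against 18292 and 15169) and overlap for Tnf and Il12b.

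With ethanol 1 of the 4 genes passed the test, against 10.6% of all genes. Whether Il6 differed from the others in this was asked within arrays, since a ratio of 2 signals on 1 array cancels its scaling. With 250 added to each signal, as here, the scaling cancels only in part. The difference of log2(signal + 250) between Il6 and Tnf was 2.07 and 1.80 in the ethanol pools and 1.46 and 1.24 in the poly IC pools. It was thus 0.58 higher with ethanol. The same quantity was 0.80 higher for Il6 over Il10 and 0.78 for Il6 over Il12b. In all 3 pairs both ethanol pools were above both poly IC pools. These pairs were formed after Il6 had been called. An exact two-sided permutation test over 4 arrays has 6 arrangements and cannot give a p below 0.333, so it cannot pass the threshold here, and no difference between the genes is called.

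**Figure D3:**
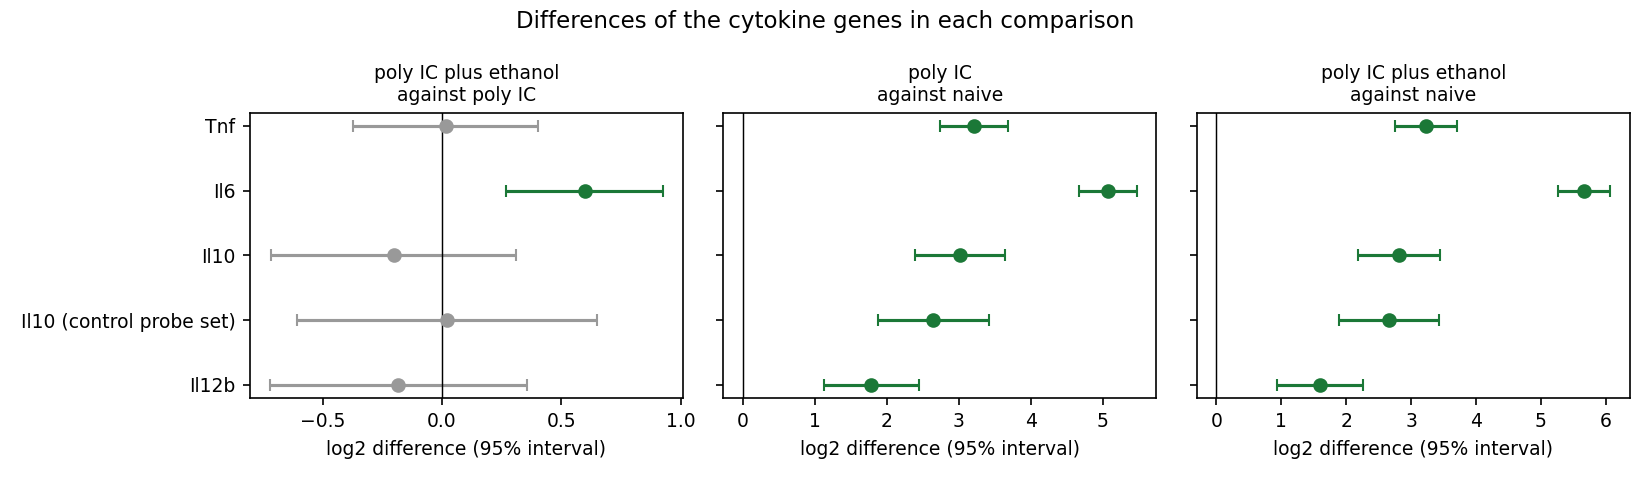
Log2 differences of the cytokine genes in the 3 comparisons, with 95% intervals from limma. Green marks adjusted p under 0.05 and grey the rest. The interval of Il6 lies above 0 in the ethanol comparison (0.27 to 0.93), while those of Tnf, Il12b and both Il10 readings include 0.

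Il6ra was the receptor gene called with ethanol. Of 8 receptor genes 6 were tested, and the IL-12 receptor genes Il12rb1 and Il12rb2 fell below the filter. With ethanol 1 of 6 was higher and none lower (median -0.13, against 0.07 over all genes), near the 10.6% of all genes called in this comparison. Il6ra, the ligand-binding chain for IL-6, had 2932 and 3592 with poly IC plus ethanol, 2004 and 1961 with poly IC, and 3935 on the naive array, and it rose by 0.65 with ethanol (SE 0.18, adjusted p = 0.0465) and fell by 0.91 with poly IC against naive (SE 0.22, adjusted p = 0.0103). The rise with ethanol was lost with any of 3 arrays left out, at 0.66 without poly IC replicate 1 (adjusted p = 0.194), 0.63 without replicate 2 (adjusted p = 0.252) and 0.51 without poly IC plus ethanol replicate 2 (adjusted p = 0.0979). With poly IC replicate 2 left out, the fall with poly IC missed the threshold (-0.89, adjusted p = 0.0561). Il6st, which encodes gp130, had 5421 and 4450 in the ethanol pools, 4688 and 4173 in the poly IC pools and 4489 on the naive array, and passed in neither comparison. With poly IC against naive, 3 receptors rose and 1 fell (median 0.50, against -0.16 over all genes), where 11.7% of all genes rose and 20.1% fell. Tnfrsf1a, which encodes TNFR1, rose by 0.99 (SE 0.21, adjusted p = 0.00497), Tnfrsf1b, for TNFR2, by 1.39 (SE 0.19, adjusted p = 5.22e-04) and Il10ra by 0.83 (SE 0.23, adjusted p = 0.0214). A dimmer second probe set for Tnfrsf1a gave 0.99 (adjusted p = 0.165 over all probe sets). Without poly IC replicate 1 Il10ra gave 0.68 (adjusted p = 0.131).

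Of 12 partner chains and related cytokines, 5 had a probe set named by them alone, and 3 were tested. None passed with ethanol by limma (median -0.07), and 0 of 3 did at an unadjusted p under 0.05, against 1441 of all 5581 genes. Ebi3, a chain of the related cytokine IL-27, rose with poly IC against naive, by 1.27 (SE 0.21, adjusted p = 0.00158). A dim second probe set for it was not called (0.06, adjusted p = 0.972). Il12a, the other chain of IL-12, was below the filter at 84 and 66 with ethanol, 123 and 417 with poly IC, and 643 on the naive array. Its naive signal exceeded those of all treated arrays, while that of Il12b was the lowest of its 5. Il6 and Il10 lie next to Dnajb6 and Mapkapk2 in RefSeq, and Tnf lies between the genes of the lymphotoxins, which act on receptors related to its own. Lta, for lymphotoxin alpha, was 1242 and 1912 with ethanol, 1404 and 1887 with poly IC and 880 on the naive array, a difference of 0.73 between poly IC and naive that did not pass (SE 0.31, adjusted p = 0.0973). Ltb, for lymphotoxin beta, had 6547 and 5984 with ethanol, 5977 and 6904 with poly IC and 33167 on the naive array. It fell with poly IC against naive (log2 difference -2.32, SE 0.18, adjusted p = 8.42e-06). Tnf and its neighbour Ltb thus had opposite signs in the comparison of poly IC with naive. In the same comparison 10 of 12 tested B cell markers were lower, and their part in the fall of Ltb was not tested.

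Transcription factors known to act on these genes mostly rose with poly IC. Of 18 tested, 1 was higher and 2 lower with ethanol (median -0.12), and 11 were higher and 1 lower with poly IC against naive (median 0.72). Of all genes 5.77% were higher and 4.8% lower with ethanol, close to these counts, and 11.7% higher and 20.1% lower with poly IC. The 2 that fell with ethanol were C/EBP factors. Cebpd had 31031 and 30667 with poly IC plus ethanol, 53340 and 58883 with poly IC, and 6759 on the naive array, and fell with ethanol by 0.86 (SE 0.11, adjusted p = 0.00207). Cebpb had 45359 and 40130 with ethanol, 64624 and 80230 with poly IC, and 44100 on the naive array, and fell by 0.75 (SE 0.12, adjusted p = 0.00600). Both calls held with any 1 treated array left out. Il6, whose upstream window holds the C/EBP match shown above (9.6% of windows do), was higher in the same pools, and a link between them was not tested. Jun, a subunit of AP-1, was 4437 and 4812 with ethanol, 2580 and 3162 with poly IC and 2172 on the naive array (0.65, SE 0.17, adjusted p = 0.0431). It did not pass when poly IC replicate 1 (0.51, adjusted p = 0.291) or replicate 2 (0.78, adjusted p = 0.140) was left out, nor with median-centred arrays (0.56, adjusted p = 0.0866). Its partner Fos fell by 1.09 with poly IC against naive (SE 0.16, adjusted p = 6.51e-04), though a dim second probe set for Fos gave 0.42 (adjusted p = 0.689). Among NF-kB genes, Nfkbiz, a nuclear cofactor needed for Il6 and Il12b induction in mouse macrophages, rose by 2.85 (SE 0.16), Bcl3 by 2.46 (SE 0.17) and Nfkb2 by 2.08 (SE 0.18), and each was within 0.27 of its poly IC level after ethanol. A dim second probe set for Nfkbiz gave 1.53 with poly IC against naive (adjusted p = 0.0610 over all probe sets).

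Genes that control cytokine mRNA after transcription, or the release of TNF from the membrane, included Mapk14 and Zfp36. Of 9 tested, 1 was higher and 1 lower with ethanol (median -0.02), and 4 were higher and 3 lower with poly IC against naive (median 0.42). The ethanol counts are near the shares of all genes, 5.77% higher and 4.8% lower, while with poly IC those shares were 11.7% and 20.1%. Mapk14 encodes p38 alpha, a kinase that stabilises these mRNAs through MAPKAPK2. It had 14243 and 12460 with poly IC plus ethanol, 4665 and 3827 with poly IC, and 18409 on the naive array. It rose by 1.60 with ethanol (SE 0.15, adjusted p = 5.37e-04), and the groups did not overlap. Zfp36 encodes tristetraprolin, which binds AU-rich elements of Tnf and Il6 mRNA and speeds their decay. It had 30033 and 26929 with ethanol, 37540 and 43548 with poly IC, and 22604 on the naive array, and fell by 0.50 (SE 0.12, adjusted p = 0.0275). It did not pass with poly IC replicate 1 left out (-0.61, adjusted p = 0.0570) or with replicate 2 left out (-0.40, adjusted p = 0.229). Map3k8 and Mapkapk2, further kinase genes of this list, rose with poly IC by 2.80 (SE 0.18) and 1.70 (SE 0.13). With ethanol they differed from poly IC by -0.15 (adjusted p = 0.563) and -0.20 (adjusted p = 0.280). A dim second probe set for Map3k8 gave -0.25 with poly IC against naive (adjusted p = 0.841 over all probe sets) and 0.69 with ethanol (adjusted p = 0.509). That of Mapkapk2 gave 2.30 with poly IC (adjusted p = 2.36e-04).

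Genes that carry or restrain the receptors' signals rose with poly IC in 10 of 14 cases and fell in 1 (median 1.22), against 11.7% and 20.1% of all genes. With ethanol 1 of 14 was lower and none higher (median 0.04), near the 4.8% and 5.77% of all genes. Tnfaip3, which encodes the NF-kB inhibitor A20, rose by 5.29 with poly IC against naive (SE 0.15), Socs1 by 4.11 (SE 0.16), Socs3, the inhibitor of IL-6 receptor signalling, by 3.34 (SE 0.11) and Nfkbia by 2.63 (SE 0.11). Their differences with ethanol lay between -0.30 and 0.13, and none passed. The gene that fell with ethanol was Jak2, a kinase of the IL-6 and IL-12 receptors, at 9852 and 7838 with poly IC plus ethanol, 14387 and 15550 with poly IC and 3040 on the naive array (-0.75, SE 0.16, adjusted p = 0.0162). Without poly IC replicate 1 it gave -0.81 (adjusted p = 0.0869) and without replicate 2 -0.70 (adjusted p = 0.162). A dim second probe set for Jak2 gave -0.44 (adjusted p = 0.614). Tradd, the TNFR1 adaptor, was the gene that fell with poly IC (-1.58, SE 0.42, adjusted p = 0.0164), and without poly IC replicate 2 it gave -1.16 (adjusted p = 0.0784). Of 5 tested genes that IL-10 induces in macrophages, 4 rose with poly IC (median 2.50), where 11.7% of all genes did, and none passed with ethanol by limma (median -0.05), though 1 had an unadjusted p under 0.05. They were Socs3, Nfil3 (2.99), Il4ra (2.50) and Bcl3, while Hmox1 differed by 0.05 (adjusted p = 0.894). A dimmer second probe set for Il4ra gave 1.05 with poly IC (adjusted p = 0.222 over all probe sets). Those of Socs3 and Nfil3 gave 3.57 (adjusted p = 2.39e-05) and 1.72 (adjusted p = 0.00144).

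**Figure D4:**
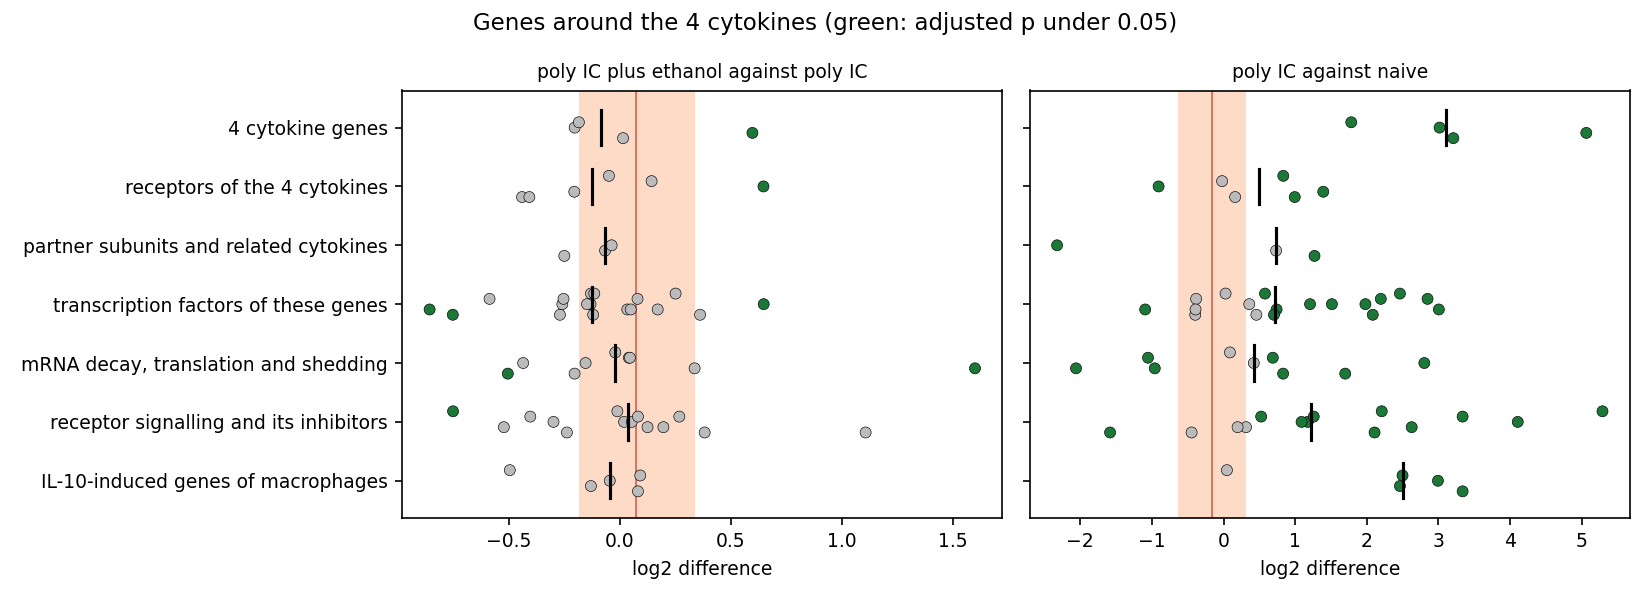
Log2 differences of the 4 cytokine genes and of the gene lists around them, with poly IC plus ethanol against poly IC on the left and poly IC against naive on the right. Each point is a tested gene, green where adjusted p is under 0.05, black bars are medians, and the shaded band holds the middle of all genes (25th to 75th percentile) with their median as a line. On the left most points lie near the band, and Il6, Il6ra, Jun and Mapk14 are the green points to the right of 0.

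Genes with the profile nearest to each cytokine were found by Euclidean distance between log2(signal + 250) values over the 5 arrays, each profile centred on its own mean. The step from naive to treated arrays weighs most in this measure, and all profiles share the same arrays. Nearest to Tnf were Cxcl1 (distance 0.269), a neutrophil chemokine, Socs3 (0.309) and Nfkbiz (0.316). Nearest to Il10 were Map3k8 (0.224), Rhou (0.227) and Nfil3 (0.248). Nearest to Il12b were B3gnt2 (0.249), Rnf19b (0.254) and Cd14 (0.260), the last a co-receptor for lipopolysaccharide. Il6 had no gene as close. Its nearest were Il1a (0.556), Tnfaip3 (0.688) and the antiviral Mx2 (0.716). Il1a, which encodes interleukin-1 alpha, had 45194 and 41782 with ethanol, 44088 and 38056 with poly IC, and 656 on the naive array. Its ethanol and poly IC values overlapped, unlike those of Il6. The naive signals of Il6, Il10 and Il12b lay below the brightest control, so these distances rest in part on signals not above it and on the offset. With a smaller offset Il6 kept 2 of its 3 nearest genes and with a larger one all 3, while Tnf kept 1 with either and Il10 and Il12b none.

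The cells on these arrays carried macrophage transcripts throughout. All 5 defining macrophage markers (Csf1r, Adgre1, Cd68, Lyz2 and Gata6) were above the brightest control on each array. Summed signals of the 20 macrophage markers measured were 693113 to 768419 with ethanol, 705843 to 788853 with poly IC and 661039 on the naive array. Of these 20, 1 was lower with ethanol and none higher, where 4.8% and 5.77% of all genes were. With poly IC against naive 3 were higher (Msr1, Selp and Cxcl13) and 3 lower (Gata6, Tgfb2 and Mertk), near the 11.7% and 20.1% of all genes. Selp rose by 1.497, while F5 (-0.031), Alox15 (-0.105) and Icam2 (-0.217) were among the markers not called. The markers thus did not move together. Gata6, a factor of resident peritoneal macrophages, was among the lower, at 1851 and 2188 with ethanol, 1169 and 1531 with poly IC and 7218 on the naive array (-2.23, SE 0.24, adjusted p = 9.38e-05 for poly IC against naive). Neutrophil markers, which can mark another source of Tnf, summed to 39070 and 46346 with ethanol, 101108 and 138253 with poly IC and 23902 on the naive array over 14 markers. Of 12 tested, 6 were lower with ethanol (4.8% of all genes were), while 8 rose and 1 fell with poly IC against naive (11.7% and 20.1% of all genes), and Mpo was below the brightest control on all 5 arrays. Among those that rose, S100a9, Ly6g, Lcn2, Cxcr2 and Mmp8 lay below the filter threshold of 513 on the naive array. They passed the filter only through the treated arrays, so the count of rises is no support for a difference. Mmp8 was also below 513 with ethanol, at 114 and 143, and passed through the poly IC arrays. B cell markers, of cells that can make IL-10 in the peritoneum, summed to 231256 and 248655 with ethanol, 165662 and 181322 with poly IC and 378381 on the naive array over 13 markers. Of 12 tested, 5 were higher with ethanol (5.77% of all genes) and 10 lower with poly IC against naive (20.1% of all genes). Mast cell markers, of a further source of Il6 and Tnf, summed to 29034 and 32236 with ethanol, 36241 and 62372 with poly IC and 22531 on the naive array over 8 markers, with the defining marker Ms4a2 below the control on 4 arrays. Without Hdc, the brightest of them and the 1 called with ethanol, the sums overlapped, at 17768 and 19527 with ethanol, 10754 and 33919 with poly IC and 20114 on the naive array. For T and NK cells 11 markers summed to 22386 and 25079 with ethanol, 14380 and 20973 with poly IC and 28116 on the naive array, with Cd3e below the control on all 5. Without Cd2, the brightest of them, the order of the treated groups turned, with 5044 and 6601 with ethanol, 7219 and 10689 with poly IC and 6337 on the naive array. Of 6 tested T and NK cell markers, 1 was higher and 1 lower with ethanol, where 5.77% and 4.8% of all genes were. Cd2 rose by 1.04 (SE 0.17, adjusted p = 0.00613), and Gzmb, of cytotoxic cells, fell by 1.51 (SE 0.27, adjusted p = 0.00893). Of 6 monocyte markers 2 were on the array, and they differed. Ccr2 had 2996 and 1899 with ethanol, 2061 and 970 with poly IC and 17139 on the naive array, and was lower with poly IC against naive (-3.37, SE 0.37, adjusted p = 1.03e-04). Cx3cr1 had 958 and 1455 with ethanol, 1260 and 1152 with poly IC and 1231 on the naive array, and was not called (-0.03 with poly IC against naive). The haemoglobin genes Hba-a1 and Hbb-b2, of red cells, were higher with poly IC against naive, by 4.42 (SE 0.39, adjusted p = 2.15e-05) and 3.10 (SE 0.44, adjusted p = 5.52e-04). Hbb-b2, at 374 on the naive array, likewise passed the filter only through the treated arrays. Of 4 dendritic cell markers tested 1 rose and 1 fell with poly IC against naive, where 11.7% and 20.1% of all genes did, and none passed with ethanol. The part of these cells in the cytokine signals was not tested. In such bulk RNA, fewer cells of a type and less RNA per cell cannot be told apart.

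**Figure D5:**
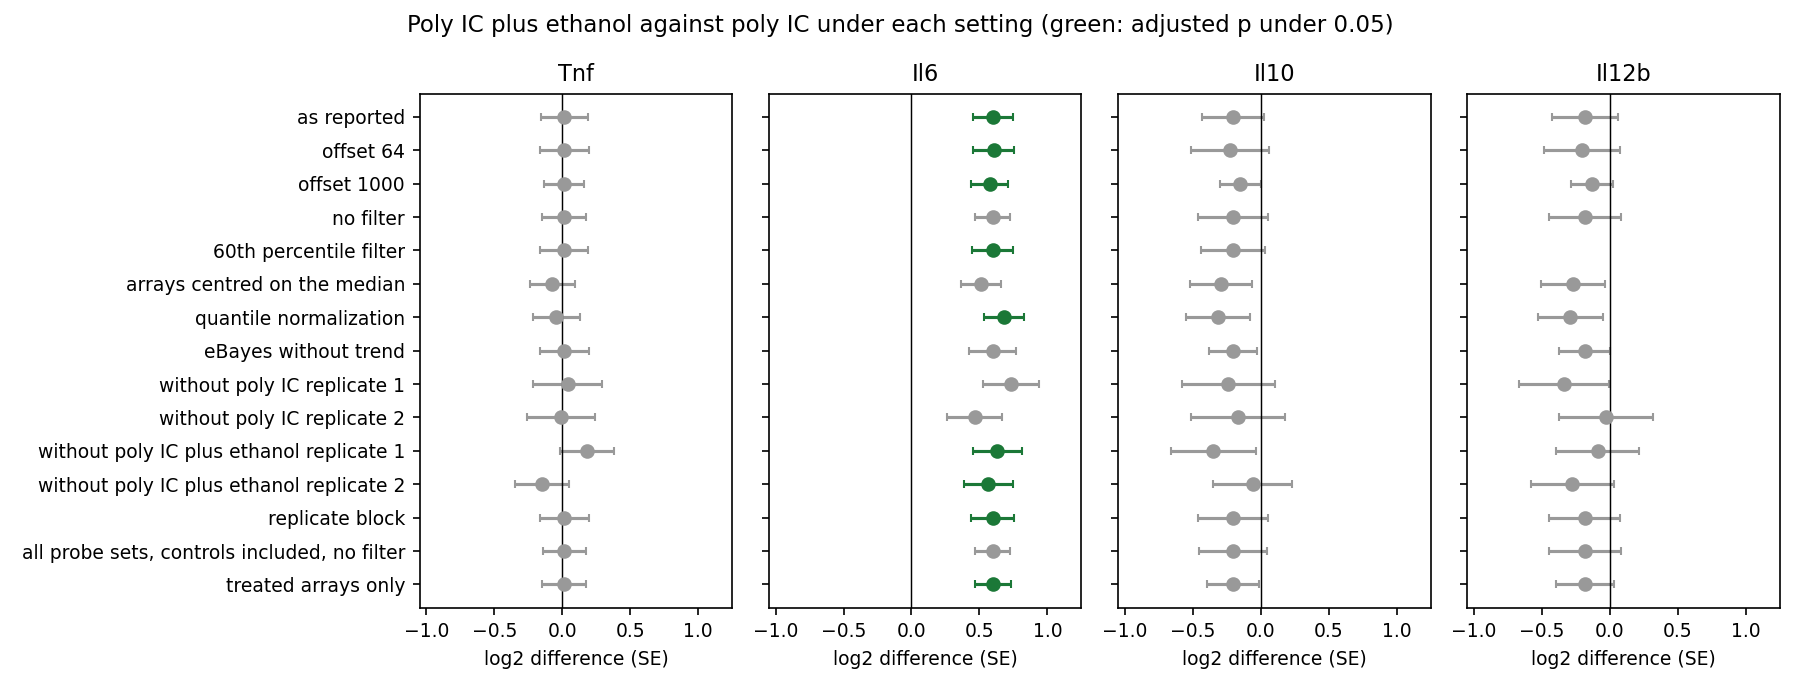
Log2 difference between poly IC plus ethanol and poly IC for each cytokine under every processing setting, with its standard error. Green marks adjusted p under 0.05, and the row at the top is the value as reported. Il6 lay between 0.46 and 0.73 in each of 14 alternatives and passed in 8, while Tnf, Il10 and Il12b passed in none.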

How the data were processed

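RNA from 5 samples was measured on 1 MG-U74Av2 array each. Per the labels, the deposited values are signal intensities on a linear scale, made with Microarray Suite 5.0 and scaled globally by the authors to a target of 2500; such scaling hides any overall shift in RNA amount. Samples were grouped by their titles. Of 12422 non-control probe sets, 10833 had 1 gene symbol on the platform, and symbols were updated through a RefSeq table of assembly GRCm38.p6. Probe sets with a mean under 513 (the 40th percentile) were left out, and the brightest probe set stood for each of 5581 genes. Values were taken as log2(signal + 250) and fitted with limma 3.58.1 in R 4.3.3, with a mean per group and eBayes with an intensity trend. The fit had 2 residual degrees of freedom and a prior of 7.63. It was tested on simulated data. A fold against a group whose mean lay below the brightest unspiked control is a lower bound against that control. The number of arrays limits the precision. Figures were drawn with matplotlib 3.10.9.

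The members and lists were chosen with earlier results of these data known. Named were the 4 genes, their 3 nearest profiles each, and tested list members. Dnajb6, a RefSeq neighbour of Il6, was named after its values were seen. Other offsets, filters, scalings, fits and left-out arrays were tried.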

Additional observations from a re-analysis of the deposited data

How the results depend on the processing

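Against naive, all 4 cytokine genes kept their direction and call in every alternative that could be fitted, 13 each for Tnf, Il6 and Il10 and 12 each for Il12b, which the 60th percentile filter left out. These genes passed the filter only through the treated arrays, so a kept direction is no support for their rises. The sizes of the 4 differences moved with the offset: with poly IC, Il10 was 4.44 with offset 64 and 1.56 with the largest offset, against 3.02, and Il12b 2.25 and 1.01, against 1.78. Il6 with ethanol stayed positive in all 14 alternatives and lost its call in 6. These were no filter (0.60, adjusted p = 0.0533), median-centred arrays (0.51), eBayes without trend (0.60, adjusted p = 0.120), all probe sets (0.60, adjusted p = 0.0793) and either poly IC replicate left out (range 0.46 to 0.73 over the left-out arrays). Tnf with ethanol, never called, turned negative with median-centred arrays (-0.072), quantile normalization (-0.044) and 2 left-out arrays (range -0.15 to 0.18). Genes called with ethanol numbered 590 (1441 at an unadjusted p under 0.05), against 324 with no filter, 262 over all probe sets, 86 without trend and 139 to 1076 with an array left out. With median-centred arrays the split was 194 higher and 286 lower, against 322 and 268. For poly IC plus ethanol against naive 929 were called (468 higher, 461 lower), against 579 without trend, 720 to 1520 with an array left out and a split of 497 and 270 with median centring. For poly IC against naive 1775 were called (654 higher, 1121 lower), against 1158 to 2367 with an array left out, with a split of 843 and 721 with median centring, which moved the median of all genes there to 0.04, against -0.16 as reported. Whether the replicate numbers of the titles pair the pools was not settled. The deviations of same-numbered pools correlated at 0.05 over genes, which cannot show that they were unpaired. With a replicate block the ethanol comparison called 838 genes, Il6 kept its value (0.60, adjusted p = 0.0104), and no call of the 4 cytokines changed. The causes of these changes were not tested. List counts and nearest profiles under the same alternatives were added after seeing the data. In the ethanol comparison Il6ra kept its call in 5 of 14, Jun in 7, Zfp36 in 8, Jak2 in 10, Cebpb in 12, Cebpd in 13 and Mapk14 in 14.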
